A study of Cricetulus griseus with 10 samples.

Results

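The transcriptome of CHO-K1 cells at passage 6 of a suspension adaptation was set against that of the same line at passage 0. CHO-K1 is an established hamster cell line (Cricetulus griseus) of ovarian origin, and every library of the series is labelled wild type. The comparison holds 4 of the series' 10 libraries, 2 at passage 6 (P6) and 2 at passage 0 (P0), grouped by their passage labels. The remaining 6 libraries, 2 each at P2, P4 and P10, entered the same fit and gave part of the estimate of the spread. All 10 share a growth label that names the serum-free medium SFM4CHO, and how the P0 cells were grown before that is not stated. Total RNA was depleted of ribosomal RNA and sequenced from stranded libraries on a MiSeq. The labels name the libraries duplicates without tying them to separate cultures, so every p-value here measures the spread between these libraries, which may be technical.

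As background, attached cells hold on to secreted matrix through integrins, and serum supplies them with growth factors, cholesterol and adhesive proteins. A cell in suspension and without serum has neither the substrate nor the lipoproteins, and must take lipids from what the medium holds or make them from acetate through the mevalonate pathway. Immediate early genes such as Fos and Nr4a1 are transcribed within minutes of serum or mechanical stimulation and are a classical readout of both. In bulk RNA, fewer cells of a type and less RNA per cell cannot be told apart.

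Reads recovered from the deposited signal ranged from 8394219 to 16599495 per library, with 13678656 and 8394219 in the P6 libraries and 12818981 and 8495567 in the P0 libraries. Of 25156 features, 13521 had a mean deposited signal of at least 10 over the 10 libraries and were tested. The label was checked against cell type markers. Of 12 matched epithelial markers, 3 reached the signal minimum and none was called, with Krt8, Krt18, Krt19 and Krt14 at a signal of 3.48 or less in every P6 and P0 library. The summed signal of the epithelial list was 144 and 130 in the P6 libraries, against 273 and 356 in the P0 libraries. The mesenchymal intermediate filament gene Vim had 17220 and 17709 in the P6 libraries, against 14367 and 12373 in the P0 libraries (log2 change 0.39 ± 0.25, SE, limma adjusted p = 0.267). The CHO-K1 libraries therefore carried mesenchymal rather than keratin transcripts at both passages. The summed mesenchymal and fibroblast list was 57446 and 51365 in the P6 libraries, against 44462 and 39145 in the P0 libraries, with 2 members risen and 3 fallen of 16 tested, and Thy1 at 0 in all libraries.

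The duplicates of P6 did not lie as close together as those of P0, and this was taken into account throughout. The 2 P6 libraries differed by more than 2-fold in 1876 of the 13521 tested features, or 13.9%, against 293 features, or 2.17%, between the 2 P0 libraries. The correlation of log2 values across genes was 0.956 between the P6 duplicates and 0.988 between the P0 duplicates. Both P6 libraries lay closer to P10 replicate 1, at 0.973 for P6 replicate 1 and 0.977 for P6 replicate 2, than to each other. P6 replicate 1 was also closer to the P4 libraries, at 0.965 and 0.967, while P6 replicate 2 stood at 0.907 with each of them. P10 replicate 2 was closer to the P4 libraries, at 0.979 and 0.977, than to its duplicate, at 0.930. The passage labels were kept as given. On the first principal component of all libraries, which held 48.9% of the variance, P6 replicate 1 lay at 34.4 and P6 replicate 2 at 83.3, with the P0 libraries at -35.8 and -37.3. P10 replicate 1, at 67.4, also stood away from its duplicate at -25. The feature annotated as Dym took 4.32% and 1.15% of all signal in the P6 libraries, against 9.20% and 13.5% in the P0 libraries, and 1.41% and 10.7% in the P10 libraries. Values below are therefore given for both libraries of each passage, replicate 1 before replicate 2, and most calls of single genes are set beside the fits that leave out 1 library.

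At passage 6, 1418 features rose and 1423 fell relative to passage 0 at an adjusted p threshold of 0.05, tested with limma on log2 of the signal plus 1 and adjusted by Benjamini-Hochberg over all tested features. The 2841 calls made up 21.0% of the tested features, with 10.5% called higher and 10.5% called lower. The share of each gene list called in a direction is to be read beside that 10.5%. The lists were chosen with earlier results of these data known, so a share above 10.5% is a description and not a test. List counts in fits that leave out a library are likewise to be read beside the loss of calls over all features given below. Only leaving out a P6 or P0 library alters the estimated change between these passages. Leaving out a P2, P4 or P10 library alters only the estimated spread, in nearly the same way for either library of the passage. Tallies over the 10 fits that leave out 1 library are therefore not 10 separate checks of a change. Both P6 libraries lay above both P0 libraries in 4322 features, or 32.0%, and below both in 4826 features, or 35.7%. All 2841 called features were among these, so absence of overlap adds nothing to a call. The change passed 2-fold for 1912 of the calls and 4-fold for 413. The median log2 change over all tested features was -0.07, with -0.01 in P6 replicate 1 and -0.10 in P6 replicate 2. Centring each library on its median moved the median log2 change from -0.065 to 0.07 and gave 1673 rises and 1085 falls, so that 60.7% of calls were rises against 49.9% under the deposited scaling. Without P6 replicate 1 there were 1800 calls, of which 1490 were among the 2841, and without P6 replicate 2 there were 1651, of which 1442 were. In both of these fits 946 of the calls remained, 482 rises and 464 falls. Leaving out P0 replicate 1 gave 412 calls and leaving out P0 replicate 2 gave 702, and 360 of the calls, 197 rises and 163 falls, remained in all 10 fits that left out 1 library.

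**Figure D1:**
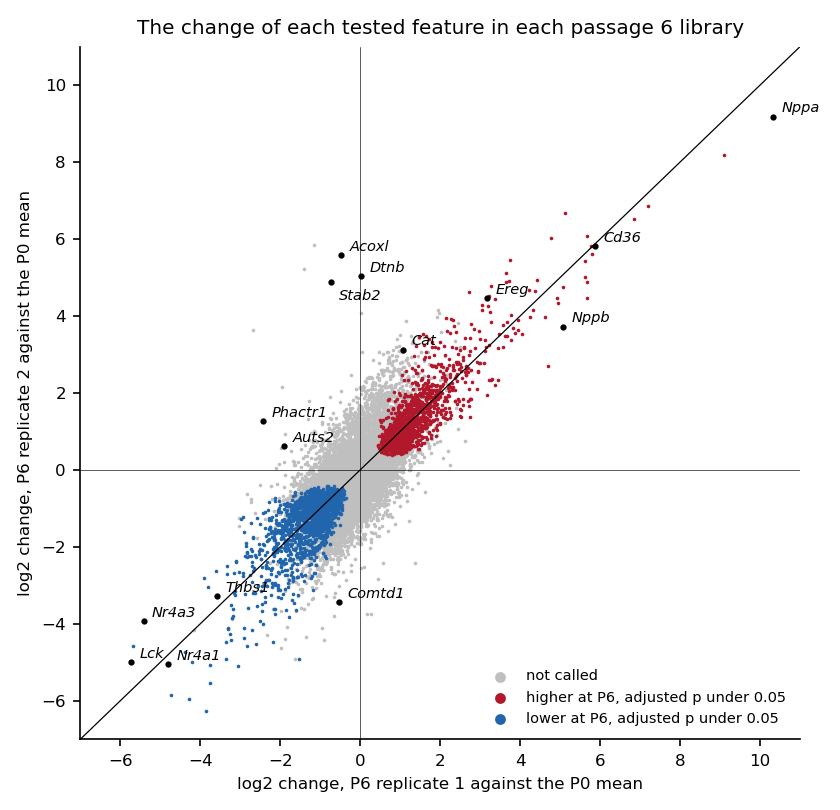
Log2 change of each of the 13521 tested features in P6 replicate 1 (x axis) and in P6 replicate 2 (y axis) against the mean of the P0 libraries; each point is 1 feature, coloured by the call over both libraries, and the diagonal marks an equal change in both. Called features lie along the diagonal, while Acoxl, Stab2 and Dtnb lie near 0 in replicate 1 and between 4.90 and 5.58 in replicate 2.

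The genes of vasoactive and natriuretic peptides held Nppa and Agt, the top of the largest rises. Nppa, which encodes the precursor of atrial natriuretic peptide, a hormone of cardiac muscle that lowers blood volume, had a signal of 6264 and 2837 in the P6 libraries, against 8.71 and 1.44 in the P0 libraries. Both P6 libraries lay far above both P0 libraries, and the signal in P6 replicate 1 was the higher of the pair (log2 change 9.76 ± 0.62, SE, adjusted p = 9.14e-05). Nppb, the gene of B-type natriuretic peptide, had 4234 and 1658 in the P6 libraries, against 126 and 122 in the P0 libraries (log2 change 4.4 ± 0.46, adjusted p = 0.000963). Again the signal in P6 replicate 1 was the higher. Agt, which encodes angiotensinogen, the substrate of renin, had 549 and 289 in the P6 libraries and no read in either P0 library. Set against a floor of 3 reads per P0 library, Agt was at least 121-fold higher at P6 (adjusted p = 1.19e-05). Rxfp1, the receptor of relaxin, had 565 and 747 in the P6 libraries, against 8.71 and 11.5 in the P0 libraries (log2 change 5.88 ± 0.28, adjusted p = 1.96e-05). These 4 were the members of the list that rose, or 33.3%, none of the 12 tested members fell, and the median log2 change of the list was 0.37, also with Agt at its bound, against -0.07 over all features. Each of the 4 was called in all 10 fits that left out 1 library. The guanylyl cyclase receptors of these peptides were not called. Npr1, which binds the products of Nppa and Nppb, had 9.39 and 12.4 in the P6 libraries, against 42.7 and 30.2 in the P0 libraries (log2 change -1.65 ± 0.53, adjusted p = 0.057). Npr2, the receptor of C-type natriuretic peptide, had 86.9 and 145 in the P6 libraries, against 252 and 167 in the P0 libraries (log2 change -0.86 ± 0.31, adjusted p = 0.0794). Both adjusted values missed the threshold. The P6 libraries of each receptor lay below both P0 libraries, as they did in 35.7% of all tested features.

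**Figure D2:**
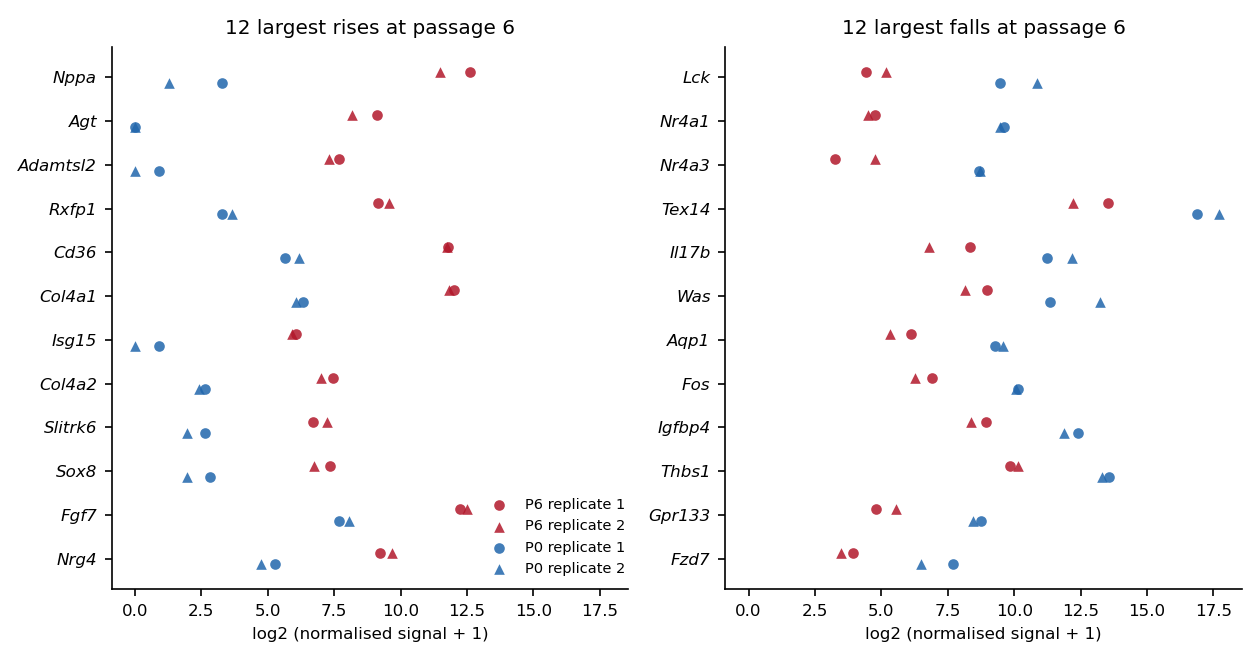
Log2 of the normalised signal plus 1 in each P6 library (red) and each P0 library (blue) for the 12 largest rises (left) and the 12 largest falls (right) among called genes with a mean signal of at least 50; circles are replicate 1 and triangles replicate 2. In all 24 genes the P6 pair and the P0 pair do not overlap, which the rule that chose them required, and Agt lies at 0 in both P0 libraries.

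On the list of fatty acid uptake and oxidation, 3 of 21 tested members rose (14.3%) and 2 fell (9.52%), both near the 10.5% of all tested features, with a median log2 change of -0.01. The largest changes were those of Cd36 and Fabp4. Cd36, a scavenger receptor that takes up long-chain fatty acids, had 3548 and 3423 in the P6 libraries, against 48.8 and 71.9 in the P0 libraries. The P6 duplicates were nearly equal here (log2 change 5.86 ± 0.25, adjusted p = 1.19e-05). Fabp4, a cytosolic fatty acid carrier best known from adipocytes, had 344 and 238 in the P6 libraries, against 19.2 and 20.1 in the P0 libraries (log2 change 3.80 ± 0.22, adjusted p = 5.45e-05). Both were called in all 10 fits that left out 1 library. Acaa2, a mitochondrial thiolase, rose as well, with 1216 and 845 in the P6 libraries, against 542 and 591 in the P0 libraries (adjusted p = 0.0271, called in 3 of the 10 fits). Ppara, a nuclear receptor that drives oxidation genes in liver, fell to 42.3 and 53.9 in the P6 libraries, against 124 and 89.1 in the P0 libraries (adjusted p = 0.0264, called in 3 of the 10 fits). On the list of fatty acid synthesis and desaturation, 1 of 14 tested members rose (7.14%) and 2 fell (14.3%), with a median of -0.33. The riser was the acyl-CoA synthetase Acsl3, and the falls were Acsl4, another such synthetase, and the elongase Elovl7. None of these 3 was called without P0 replicate 1 or without P0 replicate 2.

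Cholesterol synthesis genes rose together. Of 18 tested enzymes of the pathway, 9 rose and none fell, against 10.5% of all tested features called higher, and the median log2 change was 1.13, with 1.43 in P6 replicate 1 and 0.71 in P6 replicate 2. The 9 that rose were Hmgcs1, Mvd and Idi1 of the mevalonate branch, Fdft1 and Sqle, which make and oxidise squalene, and Lss, Msmo1, Nsdhl and Sc5d of the sterol branch. Idi1, which isomerises isopentenyl diphosphate, had 5819 and 6111 in the P6 libraries, against 1026 and 1128 in the P0 libraries (log2 change 2.47 ± 0.22, adjusted p = 0.000547). Sqle, the squalene epoxidase, had 3525 and 4502 in the P6 libraries, against 791 and 517 in the P0 libraries (log2 change 2.64 ± 0.38, adjusted p = 0.00335). Msmo1, a sterol demethylase, had 4003 and 3538 in the P6 libraries, against 1183 and 1223 in the P0 libraries (log2 change 1.64 ± 0.16, adjusted p = 0.000789). All 3 were called in every fit that left out 1 library, as were Fdft1, Nsdhl and Sc5d, while Hmgcs1 was called in 9 of the 10 (adjusted p = 0.0609 without P0 replicate 1), Lss in 3 and Mvd in 2. The list held 7 rises without P6 replicate 1, 10 without P6 replicate 2, 6 without P0 replicate 1 and 7 without P0 replicate 2, and no fall in any of these fits.

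Among the genes that sense sterols and take up lipoprotein, 4 of 15 tested members rose (26.7%) and 1 fell (6.67%), with a median log2 change of -0.14. Insig1, which holds the sterol-regulated transcription factors back in the endoplasmic reticulum and is itself induced by them, had 2100 and 1769 in the P6 libraries, against 686 and 678 in the P0 libraries (log2 change 1.5 ± 0.16, adjusted p = 0.000913). Nr1h3, the oxysterol receptor LXR alpha, had 2140 and 1720 in the P6 libraries, against 598 and 615 in the P0 libraries (log2 change 1.66 ± 0.17, adjusted p = 0.000963). Abcg1, a sterol exporter, had 50.9 and 46.1 in the P6 libraries, against 8.71 and 7.19 in the P0 libraries (log2 change 2.47 ± 0.36, adjusted p = 0.00377). These 3 were called in all 10 fits that left out 1 library. Stard4, a cholesterol carrier, was the other riser (3 of the 10 fits), and the exporter Abca1 fell to 4594 and 4316 in the P6 libraries, against 7787 and 7170 in the P0 libraries (adjusted p = 0.0435, called in 2 of the 10 fits).

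**Figure D3:**
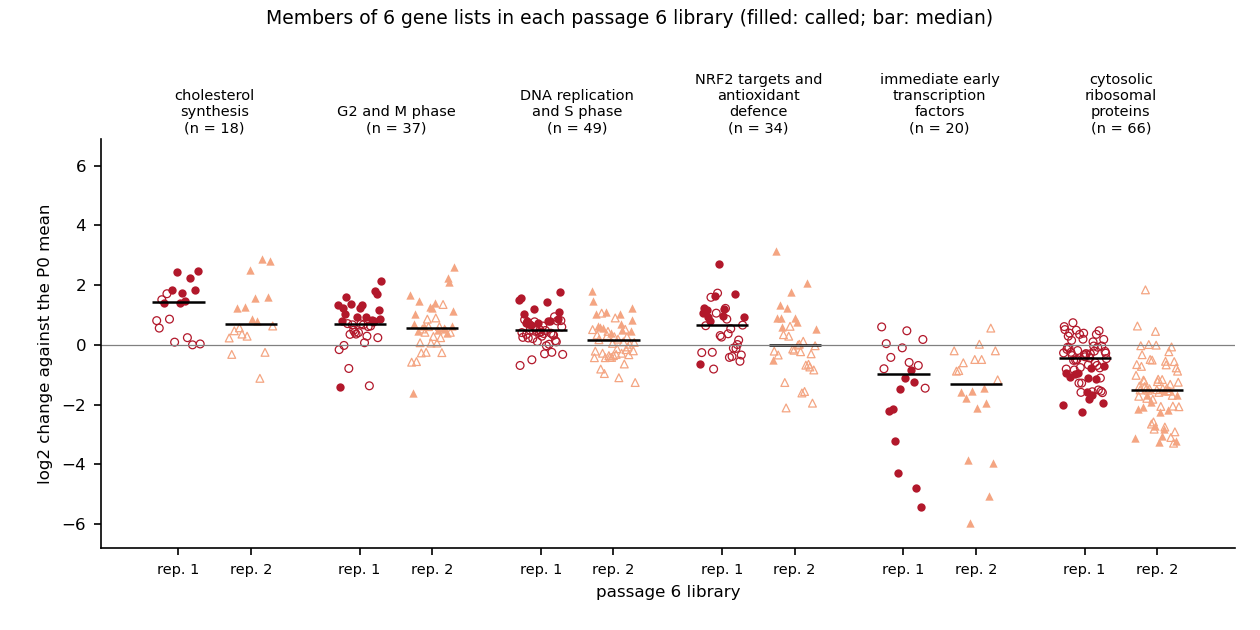
Log2 change against the mean of the P0 libraries of every tested member of 6 gene lists, in P6 replicate 1 (dark circles) and P6 replicate 2 (light triangles); filled symbols are members called over both libraries and black bars are medians. Cholesterol synthesis has medians of 1.43 and 0.71, immediate early factors -0.99 and -1.32, and cytosolic ribosomal proteins -0.45 and -1.51.

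Many cell cycle genes rose. Of 37 tested genes of G2 and M phase, 18 rose (48.6%) and 1 fell (2.70%), with a median log2 change of 0.64, and of 49 tested genes of DNA replication and S phase, 14 rose (28.6%) and none fell, with a median of 0.30. Bub1b, a kinase of the spindle checkpoint, had 1015 and 890 in the P6 libraries, against 454 and 412 in the P0 libraries (log2 change 1.13 ± 0.17, adjusted p = 0.00454). Ccnb2, a mitotic cyclin, had 2751 and 2531 in the P6 libraries, against 929 and 881 in the P0 libraries (log2 change 1.54 ± 0.22, adjusted p = 0.00309). Kif20a, a kinesin of cytokinesis, had 1961 and 2063 in the P6 libraries, against 832 and 743 in the P0 libraries (log2 change 1.35 ± 0.21, adjusted p = 0.00493). In these 3 genes the call stood in all 10 fits that left out 1 library. Prc1, which bundles microtubules of the central spindle, had 7171 and 9791 in the P6 libraries, against 2087 and 2047 in the P0 libraries (log2 change 2.02 ± 0.34, adjusted p = 0.00624, called in 8 of the 10 fits, adjusted p = 0.0606 without P0 replicate 1). Aurkb, the kinase of the chromosomal passenger complex, was the member that fell, to 167 and 144 in the P6 libraries, against 332 and 594 in the P0 libraries (adjusted p = 0.0348, called in 2 of the 10 fits). Several widely used proliferation markers were not called. Mki67 had 1408 and 3050 in the P6 libraries, against 4436 and 3002 in the P0 libraries (adjusted p = 0.208), so its groups overlapped. Top2a had 9474 and 10751 in the P6 libraries, against 8402 and 7649 in the P0 libraries (adjusted p = 0.369), and Cdk1 had 2531 and 1516 in the P6 libraries, against 1752 and 1842 in the P0 libraries (adjusted p = 0.759).

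Among replication genes, Pold2, a subunit of DNA polymerase delta, had 1472 and 1120 in the P6 libraries, against 548 and 552 in the P0 libraries (log2 change 1.22 ± 0.17, adjusted p = 0.0033, called in all 10 fits). Rrm2, the regulated subunit of ribonucleotide reductase, had 2056 and 1419 in the P6 libraries, against 586 and 615 in the P0 libraries (log2 change 1.51 ± 0.25, adjusted p = 0.00618, and 0.0633 without P0 replicate 1). Its partner subunit Rrm1 had 3005 and 2481 in the P6 libraries, against 1338 and 1454 in the P0 libraries (log2 change 0.97 ± 0.18, adjusted p = 0.00861, called in 8 of the 10 fits). Most of the replication list was higher in P6 replicate 1 than in P6 replicate 2, with 42 of 49 members against 55.2% of all tested features. Pcna, the polymerase clamp, was not called, with 1657 and 1019 in the P6 libraries, against 1288 and 1256 in the P0 libraries (log2 change 0.03 ± 0.23, adjusted p = 0.929). Most calls over all features were lost without either P0 library in turn, and the cell cycle lists shared that loss. The 2 cell cycle lists held fewer rises without P6 replicate 1, without P6 replicate 2 and without either P0 library in turn. Such a fit leaves 1 library in a passage, so fewer calls do not by themselves show that a rise rests on particular libraries.

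Immediate early transcription factors fell. Of 20 tested members, 10 fell and none rose, against 10.5% of all tested features called lower, with a median log2 change of -1.23. Nr4a1, an orphan nuclear receptor induced by serum, had 25.8 and 21.3 in the P6 libraries, against 792 and 703 in the P0 libraries (log2 change -4.93 ± 0.35, adjusted p = 0.00015). Its relative Nr4a3 had 8.61 and 25.8 in the P6 libraries, against 405 and 417 in the P0 libraries (log2 change -4.68 ± 0.47, adjusted p = 0.000815). Fos, a subunit of the AP-1 factor, had 118 and 75.3 in the P6 libraries, against 1130 and 1082 in the P0 libraries (log2 change -3.54 ± 0.39, adjusted p = 0.00119). Fosb, another AP-1 subunit, had 9.39 and 2.25 in the P6 libraries, against 233 and 175 in the P0 libraries (log2 change -5.13 ± 0.56, adjusted p = 0.00119). Each of these 4 genes was called in all 10 fits that left out 1 library. Egr1, Egr3, Fosl2, Junb, Klf6 and Myc also fell, called in 2 to 9 of the 10 fits, Egr1 to 86.1 and 133 in the P6 libraries, against 564 and 285 in the P0 libraries (adjusted p = 0.0275, called in 2 of the 10 fits). Egr2 was not called, with 99.4 and 87.6 in the P6 libraries, against 171 and 103 in the P0 libraries (adjusted p = 0.263). The list held 8 falls without P6 replicate 1, 6 without P6 replicate 2, 4 without P0 replicate 1 and 5 without P0 replicate 2.

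The inhibitors that MAP kinase signalling induces against itself did not follow one direction, with 4 of 16 tested members risen (25.0%) and 2 fallen (12.5%) and a median log2 change of -0.03. Spry2, a Sprouty protein that restrains signalling from receptor tyrosine kinases, had 732 and 647 in the P6 libraries, against 282 and 223 in the P0 libraries (log2 change 1.45 ± 0.18, adjusted p = 0.0022), and was called in all 10 fits that left out 1 library. Spry4, Dusp7 and Dusp14 were the other risers, called in 3, 5 and 3 of the 10 fits, and the phosphatases Dusp4 and Dusp10 fell, Dusp10 in 3 of the fits. Dusp4 had 93.1 and 92.1 in the P6 libraries, against 158 and 155 in the P0 libraries (adjusted p = 0.0333, called in 2 of the 10 fits).

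Genes of the insulin and insulin-like growth factor axis fell more often than they rose. Of 16 tested members, 6 fell (37.5%) and 1 rose (6.25%), with a median log2 change of -0.28. Igfbp4, a secreted protein that binds insulin-like growth factors, had 496 and 327 in the P6 libraries, against 5475 and 3753 in the P0 libraries (log2 change -3.49 ± 0.33, adjusted p = 0.000718). Stc2, an inhibitor of the protease that cleaves Igfbp4, had 20.3 and 6.74 in the P6 libraries, against 162 and 154 in the P0 libraries (log2 change -3.63 ± 0.45, adjusted p = 0.00217). Igf1r, the receptor, had 534 and 726 in the P6 libraries, against 2025 and 2479 in the P0 libraries (log2 change -1.85 ± 0.22, adjusted p = 0.00159). Irs1, its adaptor, had 180 and 244 in the P6 libraries, against 617 and 605 in the P0 libraries (log2 change -1.54 ± 0.21, adjusted p = 0.00287). For each of these the call stood in all 10 fits that left out 1 library, as it did for the transcription factor Foxo1. The insulin receptor gene Insr was not called, with 164 and 280 in the P6 libraries, against 474 and 336 in the P0 libraries (adjusted p = 0.0824). Irs2 also fell and Pappa2 rose, each called in 3 of the 10 fits.

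Several growth factor genes were among the largest rises. On the list of receptor tyrosine kinases and their ligands, 6 of 27 tested members rose (22.2%) and 6 fell (22.2%), with a median log2 change of 0.14. Fgf7, a fibroblast growth factor that acts on epithelia, had 4810 and 5807 in the P6 libraries, against 203 and 264 in the P0 libraries (log2 change 4.51 ± 0.33, adjusted p = 0.00016). Nrg4, a ligand of the ErbB4 receptor, had 603 and 821 in the P6 libraries, against 37.5 and 25.9 in the P0 libraries (log2 change 4.45 ± 0.37, adjusted p = 0.000363). Ereg, the EGF family ligand epiregulin, had 2140 and 5219 in the P6 libraries, against 260 and 214 in the P0 libraries, and was the higher in P6 replicate 2 (log2 change 3.82 ± 0.39, adjusted p = 0.00085). Hgf, hepatocyte growth factor, had 1283 and 1191 in the P6 libraries, against 508 and 530 in the P0 libraries (log2 change 1.25 ± 0.19, adjusted p = 0.00382). The ligand Fgf2 went the other way, with 249 and 240 in the P6 libraries, against 1680 and 1137 in the P0 libraries (log2 change -2.49 ± 0.24, adjusted p = 0.000752). These 5 ligands and the fallen collagen receptor Ddr2 were called in all 10 fits that left out 1 library. Of the other receptors, Ddr1, Erbb2, Fgfr1 and Pdgfra fell, called in 6 to 9 of the 10 fits, and Egfr and Epha2 rose, called in 9 and 3. Fgfr1 had 371 and 260 in the P6 libraries, against 1119 and 775 in the P0 libraries (log2 change -1.58 ± 0.28, adjusted p = 0.00752, and 0.0795 without P0 replicate 1).

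The matrix genes split between collagen IV and collagen VI, which rose, and adhesive glycoproteins, several of which fell. Of 15 tested basement membrane genes, 4 rose (26.7%) and 3 fell (20.0%), with a median log2 change of 0.03. Col4a1, a chain of the network-forming collagen IV, had 4117 and 3587 in the P6 libraries, against 80.1 and 66.1 in the P0 libraries (log2 change 5.70 ± 0.18, adjusted p = 2.85e-06), the smallest adjusted p of all tested features. Col4a2, which encodes the partner chain, had 175 and 126 in the P6 libraries, against 5.23 and 4.31 in the P0 libraries (log2 change 4.70 ± 0.32, adjusted p = 0.000114). Both were called in all 10 fits that left out 1 library, and Nid2, a nidogen that links laminin to collagen IV, in 9 (adjusted p = 0.0572 without P0 replicate 1). The laminin genes Lama5 and Lamc1 and the proteoglycan gene Agrn fell, Lama5 and Agrn in 2 of the 10 fits each. Lamc1 had 4839 and 5243 in the P6 libraries, against 10544 and 8179 in the P0 libraries (log2 change -0.88 ± 0.20, adjusted p = 0.0199, called in 7 of the 10 fits). Without P6 replicate 1 none of these 3 falls was called, and without P6 replicate 2 only 1 basement membrane gene was called lower, while the 4 rises numbered 4 in both fits.

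In the interstitial matrix, 8 of 29 tested members rose (27.6%) and 6 fell (20.7%), with a median log2 change of -0.21. Adamtsl2, a secreted protein that binds fibrillin and the latent TGF-beta complex, had 202 and 158 in the P6 libraries, against 0.871 and 0 in the P0 libraries. That is 399 reads at P6 against 1 at P0, a ratio of pooled reads scaled for depth of 339 (exact 95% counting interval 60.6 to 13436, adjusted p = 0.000105). Col6a1, a chain of the microfibrillar collagen VI, had 1845 and 1507 in the P6 libraries, against 420 and 305 in the P0 libraries (log2 change 2.22 ± 0.26, adjusted p = 0.00162). Its partner Col6a2 had 514 and 271 in the P6 libraries, against 54.9 and 50.3 in the P0 libraries (log2 change 2.80 ± 0.34, adjusted p = 0.0018). Thbs1, thrombospondin 1, an adhesive glycoprotein that also activates latent TGF-beta, had 915 and 1132 in the P6 libraries, against 12125 and 10022 in the P0 libraries (log2 change -3.44 ± 0.19, adjusted p = 5.45e-05). Efemp1, a fibulin, had 1285 and 1259 in the P6 libraries, against 4275 and 4080 in the P0 libraries (log2 change -1.71 ± 0.17, adjusted p = 0.000846). These 5 genes were called in all 10 fits that left out 1 library. Fn1, fibronectin, the main adhesive protein of serum and matrix, had 2433 and 2797 in the P6 libraries, against 7604 and 5351 in the P0 libraries (log2 change -1.29 ± 0.21, adjusted p = 0.00506, and 0.0573 without P0 replicate 1).

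Of 22 tested proteases and inhibitors of the matrix, 9 rose (40.9%), 2 fell (9.09%) and 11 were not called, with a median log2 change of 0.63. Mmp12, the macrophage elastase, had 1273 and 1529 in the P6 libraries, against 133 and 158 in the P0 libraries (log2 change 3.26 ± 0.34, adjusted p = 0.000899). Adamts4, an aggrecanase, had 232 and 175 in the P6 libraries, against 74 and 50.3 in the P0 libraries (log2 change 1.71 ± 0.25, adjusted p = 0.00343). Both were called in all 10 fits that left out 1 library. Adamts1 and the membrane protease Mmp14 fell, Mmp14 in 3 of the 10 fits. Adamts1 had 161 and 139 in the P6 libraries, against 435 and 385 in the P0 libraries (log2 change -1.44 ± 0.24, adjusted p = 0.006, and 0.0662 without P0 replicate 1). The list held 5 rises without P6 replicate 1, 7 without P6 replicate 2 and 3 without either P0 library in turn.

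Enzymes and core proteins of heparan sulfate, the chain that holds growth factors at the cell surface, fell or were not called: 6 of 18 tested members fell (33.3%) and none rose, with a median log2 change of -0.56. Sulf2, an extracellular sulfatase that trims heparan sulfate, had 90.8 and 83.1 in the P6 libraries, against 964 and 668 in the P0 libraries (log2 change -3.19 ± 0.23, adjusted p = 0.00015), and was called in all 10 fits that left out 1 library. Sdc4, a syndecan of focal adhesions, had 2501 and 1545 in the P6 libraries, against 5871 and 6071 in the P0 libraries (log2 change -1.60 ± 0.33, adjusted p = 0.0136, called in 7 of the 10 fits). Ext1, Hs6st1, Ndst1 and Ndst2, which build and sulfate the chain, were the other falls, called in 2 to 6 of the 10 fits, and the list held 3 falls without P6 replicate 1, 2 without P6 replicate 2 and 1 without either P0 library in turn.

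Of 33 tested integrin and focal adhesion genes, 8 fell (24.2%) and 2 rose (6.06%), against 10.5% of all tested features in each direction, with a median log2 change of -0.38. Zyx, zyxin, an adaptor of focal adhesions and stress fibres, had 50.9 and 60.7 in the P6 libraries, against 421 and 374 in the P0 libraries (log2 change -2.81 ± 0.25, adjusted p = 0.000532, called in all 10 fits). Itga3, the integrin alpha chain of laminin receptors, had 497 and 324 in the P6 libraries, against 1767 and 1255 in the P0 libraries (log2 change -1.89 ± 0.33, adjusted p = 0.00708, and 0.0757 without P0 replicate 1). The alpha chain of the fibronectin receptor, Itga5, and the shared beta chain, Itgb1, fell too, Itgb1 to 7372 and 7666 in the P6 libraries, against 14043 and 11794 in the P0 libraries (log2 change -0.78 ± 0.19, adjusted p = 0.0236, called in 3 of the 10 fits). Actn1, Actn4, Src and Pdlim5 were the other falls, called in 7 or 8 of the 10 fits, and Csrp1 and Nedd9 rose, called in 8 and 2. The list held 1 rise and 5 falls without P6 replicate 1, 1 rise and 8 falls without P6 replicate 2, 1 fall without P0 replicate 1 and 3 falls without P0 replicate 2.

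Among the targets of YAP and SRF and the actin cytoskeleton, 3 of 27 tested members rose (11.1%) and 6 fell (22.2%), with a median log2 change of -0.40. The sister targets of YAP went in opposite directions. Cyr61 had 304 and 270 in the P6 libraries, against 1036 and 878 in the P0 libraries (log2 change -1.73 ± 0.20, adjusted p = 0.00159, called in all 10 fits). Ccn2, connective tissue growth factor, had 322 and 230 in the P6 libraries, against 98.4 and 73.3 in the P0 libraries (log2 change 1.67 ± 0.30, adjusted p = 0.00795, and 0.0675 without P0 replicate 2). Yap1 itself fell to 332 and 359 in the P6 libraries, against 611 and 513 in the P0 libraries (adjusted p = 0.0219, called in 3 of the 10 fits), and its partner Tead1 to 750 and 1525, against 3940 and 3398 in the P0 libraries (log2 change -1.77 ± 0.30, adjusted p = 0.0064, and 0.0676 without P0 replicate 1). Cald1 and Tpm4, which bind actin filaments, rose, each called in 8 of the 10 fits. Of 20 tested cadherins and junction genes, 1 rose and 1 fell (5% each), with a median of -0.26. The member that fell was Dsp, desmoplakin, which ties keratin to desmosomes, with 180 and 193 in the P6 libraries, against 1295 and 989 in the P0 libraries (log2 change -2.59 ± 0.20, adjusted p = 0.000246, called in all 10 fits). The member that rose was Jup, plakoglobin, with 177 and 172 in the P6 libraries, against 88.8 and 61.8 in the P0 libraries (adjusted p = 0.0171, called in 6 of the 10 fits).

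Of 21 tested aquaporins and regulators of cell volume, 10 fell (47.6%), 1 rose (4.76%) and 10 were not called, with a median log2 change of -0.61. Aqp1, a water channel, had 68.9 and 39.3 in the P6 libraries, against 625 and 773 in the P0 libraries (log2 change -3.71 ± 0.61, adjusted p = 0.00561, and 0.0506 without P0 replicate 1). Sgk1, a kinase induced by serum and osmotic stress, had 1666 and 1201 in the P6 libraries, against 3237 and 3176 in the P0 libraries (log2 change -1.18 ± 0.18, adjusted p = 0.00463, and 0.0539 without P0 replicate 1). The chloride-sensing kinases Wnk1, Wnk4 and Stk39 fell, called in 7, 3 and 7 of the 10 fits, as did the osmolyte carriers Slc5a3 and Slc6a6, called in 2 each, while the aldose reductase Akr1b1 rose, called in 3. Calls over all features were also fewer without either P6 library or either P0 library in turn, and the volume list shared that loss. Its falls were fewer in each of these fits, which by itself does not show that they rest on particular libraries.

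Of 24 tested Wnt receptors and modulators, 5 fell (20.8%) and 1 rose (4.17%), with a median log2 change of -0.57. Fzd7, a Frizzled receptor, had 14.1 and 10.1 in the P6 libraries, against 206 and 89.1 in the P0 libraries (log2 change -3.40 ± 0.63, adjusted p = 0.00892, and 0.0884 without P0 replicate 1). Fzd3, Fzd5 and the nuclear effectors Tcf7 and Tcf7l2 were the other falls, called in 2, 3, 8 and 8 of the 10 fits, and the ligand Wnt7b rose to 25.0 and 24.7 in the P6 libraries, against 6.97 and 2.87 in the P0 libraries (log2 change 2.22 ± 0.42, adjusted p = 0.00963, and 0.0639 without P0 replicate 2). In the TGF-beta and BMP pathway, 3 of 29 tested members rose (10.3%) and 5 fell (17.2%), with a median of -0.18. The receptor Acvr1 had 202 and 252 in the P6 libraries, against 591 and 507 in the P0 libraries (log2 change -1.28 ± 0.24, adjusted p = 0.00878, and 0.0863 without P0 replicate 1). Neither list had a fall called without P0 replicate 1.

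Targets of NRF2, the transcription factor of the oxidative stress response, rose in part. Of 34 tested members, 11 rose (32.4%) and 1 fell (2.94%), with a median log2 change of 0.32, and the P6 libraries differed, with medians of 0.65 in replicate 1 and -0.02 in replicate 2. Hmox1, heme oxygenase, had 2580 and 1355 in the P6 libraries, against 406 and 381 in the P0 libraries (log2 change 2.25 ± 0.30, adjusted p = 0.00262). Slc7a11, which imports cystine for glutathione synthesis, had 1511 and 1927 in the P6 libraries, against 422 and 503 in the P0 libraries (log2 change 1.89 ± 0.22, adjusted p = 0.00159). Gsr, glutathione reductase, had 1874 and 1392 in the P6 libraries, against 618 and 578 in the P0 libraries (log2 change 1.43 ± 0.20, adjusted p = 0.00288). These 3 were called in all 10 fits that left out 1 library. Gclc and Gclm, the subunits of the rate-limiting enzyme of glutathione synthesis, Nqo1, Txnrd1, Fth1, the ferritin heavy chain, and Nfe2l2, the gene of NRF2 itself, also rose, called in 2 to 8 of the 10 fits, and the exporter Abcc1 fell (called in 2). Cat, catalase, had 2288 and 9533 in the P6 libraries, against 1172 and 1005 in the P0 libraries, so that its change rested mostly on replicate 2 (log2 change 2.11 ± 0.54, adjusted p = 0.0284, and 0.0519 without P6 replicate 2). The list held 6 rises without P6 replicate 1, 8 without P6 replicate 2 and 3 without either P0 library in turn.

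Stress responses of the endoplasmic reticulum and of amino acid supply did not rise as a whole. Of 28 tested genes of ER chaperones and the unfolded protein response, 5 rose (17.9%) and 5 fell (17.9%), with a median log2 change of -0.04. Hspa5, the main ER chaperone, was not called, with 41317 and 30901 in the P6 libraries, against 31082 and 31531 in the P0 libraries (log2 change 0.19 ± 0.29, adjusted p = 0.645). Ppp1r15a, a phosphatase subunit that ends the stress block on translation, had 66.5 and 44.9 in the P6 libraries, against 260 and 269 in the P0 libraries (log2 change -2.25 ± 0.37, adjusted p = 0.00599, and 0.0588 without P0 replicate 1). Of 34 tested genes of the amino acid response and of amino acid synthesis, 2 rose (5.88%) and 8 fell (23.5%), with a median of -0.37. Sesn2, a leucine sensor, had 109 and 103 in the P6 libraries, against 438 and 365 in the P0 libraries (log2 change -1.91 ± 0.31, adjusted p = 0.00566, and 0.0646 without P0 replicate 1). Slc38a2, a neutral amino acid carrier, had 2086 and 2706 in the P6 libraries, against 5629 and 5233 in the P0 libraries (log2 change -1.19 ± 0.18, adjusted p = 0.00417, and 0.0543 without P0 replicate 1). No member of either list was called without P0 replicate 1. Of 22 tested chaperones of cytosol and mitochondria, 2 rose (9.09%) and 1 fell (4.55%), with a median of 0.18.

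Of 34 tested interferon and inflammatory genes, 8 rose (23.5%) and 3 fell (8.82%), with a median log2 change of 0.17. Isg15, a ubiquitin-like protein induced by interferon, had 66.5 and 58.4 in the P6 libraries, against 0.871 and 0 in the P0 libraries. That is 137 reads at P6 against 1 at P0, a depth-scaled ratio of 117 (exact 95% counting interval 20.6 to 4635, adjusted p = 0.00015). Il33, a nuclear cytokine released from damaged cells, had 510 and 585 in the P6 libraries, against 49.7 and 35.9 in the P0 libraries (log2 change 3.66 ± 0.24, adjusted p = 0.000105). Oasl2, another interferon-induced gene, had 103 and 84.3 in the P6 libraries, against 28.7 and 17.2 in the P0 libraries (log2 change 2.01 ± 0.29, adjusted p = 0.00361). Cxcl12, a chemokine, was lower, with 40.7 and 38.2 in the P6 libraries, against 135 and 114 in the P0 libraries (log2 change -1.63 ± 0.24, adjusted p = 0.00349). These 4 and the complement gene C3, which rose, were called in all 10 fits that left out 1 library. Leukocyte markers moved beside this list and their part in it was not tested. Of 16 matched leukocyte markers, 7 were tested and 3 rose (Cd68, Mpeg1 and Itgax, called in 7, 2 and 10 of the 10 fits), and the summed signal was 243 and 324 in the P6 libraries, against 146 and 162 in the P0 libraries. The defining markers Cd14 and Aif1 were at 0 in every P6 and P0 library, and Cd3e, Cd79a and Tyrobp were at 1.44 or less. Itgax had 21.1 and 19.1 in the P6 libraries, against 0 and 1.44 in the P0 libraries, or 44 reads against 1 (ratio 37.4, exact 95% counting interval 6.37 to 1511).

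In glycolysis and lactate handling, 2 of 26 tested members rose (7.69%) and 2 fell (7.69%), against 10.5% of all tested features in each direction, with a median log2 change of -0.43. Gapdh rose to 36388 and 31214 in the P6 libraries, against 18832 and 18764 in the P0 libraries (log2 change 0.84 ± 0.24, adjusted p = 0.0366, called in 3 of the 10 fits), and Gpi fell to 171 and 140 in the P6 libraries, against 562 and 405 in the P0 libraries (log2 change -1.62 ± 0.31, adjusted p = 0.0101, and 0.0975 without P0 replicate 1). Among nuclear genes of the respiratory chain, 5 of 36 tested members rose (13.9%) and 1 fell (2.78%). The P6 libraries disagreed in sign on this list, with medians of 0.14 in replicate 1 and -0.61 in replicate 2, and 35 of the 36 members were higher in replicate 1. In the hypoxia response, 2 of 17 tested members rose (11.8%) and 4 fell (23.5%), with a median of -0.31. Hif1a, the oxygen-regulated transcription factor, had 5775 and 6367 in the P6 libraries, against 1483 and 1324 in the P0 libraries (log2 change 2.11 ± 0.30, adjusted p = 0.00309, called in all 10 fits). Its relative Epas1 had 21.9 and 57.3 in the P6 libraries, against 180 and 128 in the P0 libraries (log2 change -2.06 ± 0.43, adjusted p = 0.0134, called in 8 of the 10 fits, adjusted p = 0.114 without P0 replicate 1).

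Of 34 tested lysosomal genes, 6 rose (17.6%) and 5 fell (14.7%), with a median log2 change of -0.08. Ctsa, the protective protein cathepsin A, had 15521 and 15648 in the P6 libraries, against 4624 and 4207 in the P0 libraries (log2 change 1.82 ± 0.23, adjusted p = 0.00227, called in all 10 fits). Gaa, the acid glucosidase, fell to 3440 and 2440 in the P6 libraries, against 9062 and 6377 in the P0 libraries (log2 change -1.39 ± 0.34, adjusted p = 0.0238, called in 7 of the 10 fits). Of 40 tested genes of N-glycosylation, which matter to CHO cells as producers of glycoprotein, 4 rose (10.0%) and 3 fell (7.50%), no more than the 10.5% of all tested features in each direction, with a median of -0.21. Dad1, a subunit of the oligosaccharyltransferase, had 1033 and 1018 in the P6 libraries, against 472 and 431 in the P0 libraries (log2 change 1.18 ± 0.15, adjusted p = 0.00239, called in all 10 fits). Its alternative catalytic subunits went in opposite directions, Stt3a at 4500 and 4265 in the P6 libraries, against 2738 and 2491 in the P0 libraries, and Stt3b at 1900 and 1841 in the P6 libraries, against 2789 and 2627 in the P0 libraries (adjusted p = 0.0287 and 0.0499, each called in 2 of the 10 fits). Fut8, which adds core fucose, was not called, with 715 and 921 in the P6 libraries, against 1035 and 1140 in the P0 libraries (log2 change -0.42 ± 0.20, adjusted p = 0.156). Of 27 tested apoptosis regulators and p53 targets, 2 rose (7.41%) and 3 fell (11.1%), with a median of -0.14. The pro-apoptotic gene Bcl2l11 was the lower, with 351 and 409 in the P6 libraries, against 829 and 829 in the P0 libraries (log2 change -1.13 ± 0.17, adjusted p = 0.00452, and 0.0522 without P0 replicate 1).

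**Figure D4:**
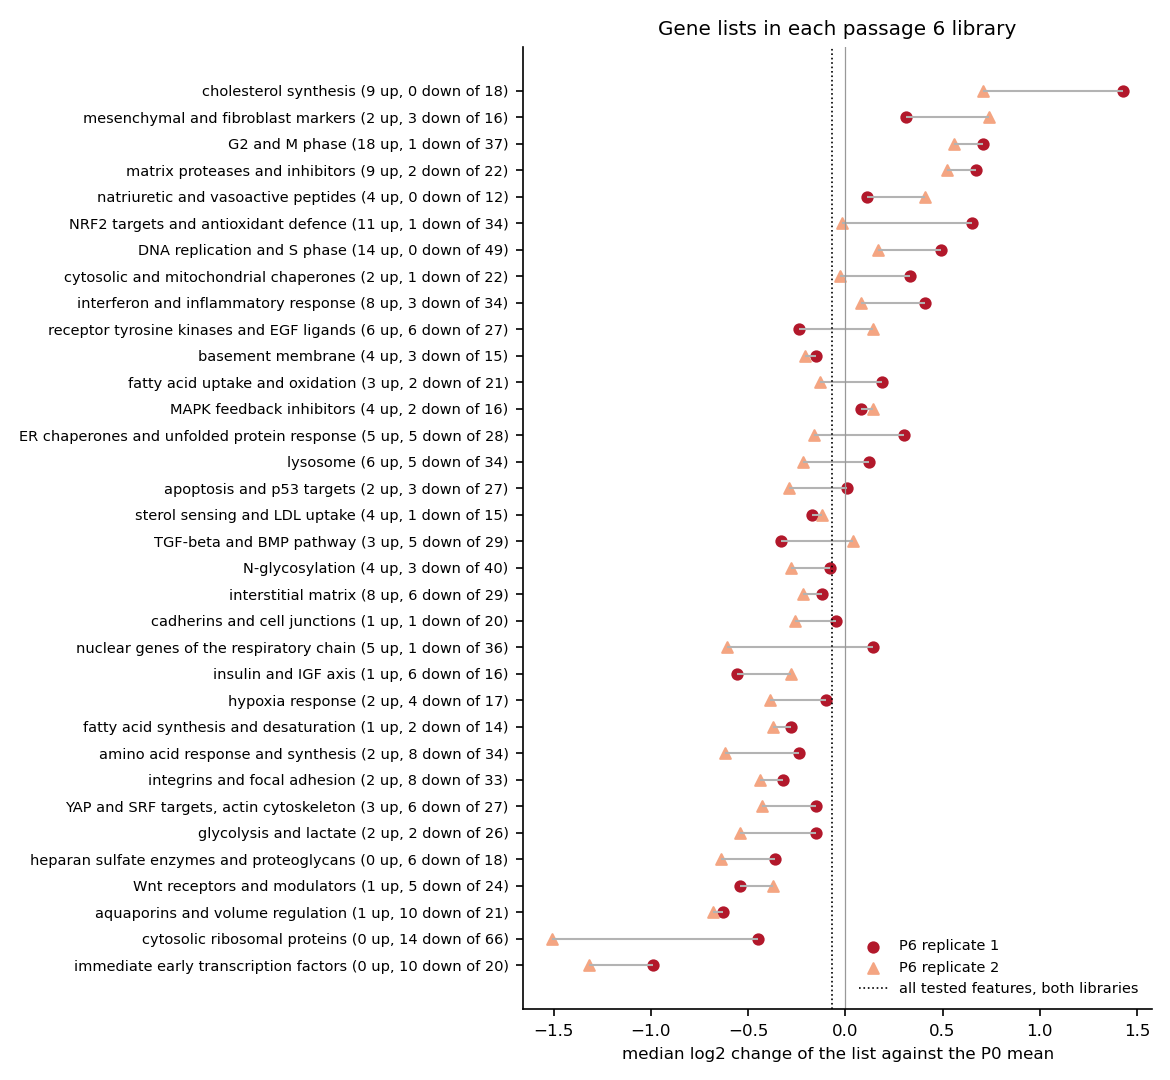
Median log2 change of each gene list with at least 10 tested members in P6 replicate 1 (dark circles) and P6 replicate 2 (light triangles), against the mean of the P0 libraries; the dotted line marks the median of all tested features, -0.07, and the labels give the members called higher and lower. In replicate 1 cholesterol synthesis lies highest and immediate early factors lie lowest; in replicate 2 the mesenchymal list, at 0.74, lies above cholesterol synthesis, at 0.71, and ribosomal proteins lie lowest, at -1.51.

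Cytosolic ribosomal protein genes were the list on which the P6 duplicates parted most. Of 66 tested members, 14 fell (21.2%) and none rose, with a median log2 change of -0.96, but the median was -0.45 in P6 replicate 1 and -1.51 in P6 replicate 2. Of these 66 genes, 63 were higher in P6 replicate 1, and the list took 3.74% and 2.66% of all signal in the P6 libraries, against 4.26% and 4.82% in the P0 libraries. Rpl19 had 7078 and 3575 in the P6 libraries, against 14176 and 16020 in the P0 libraries (log2 change -1.58 ± 0.38, adjusted p = 0.0229, called in 7 of the 10 fits). Rpl11 had 13392 and 5559 in the P6 libraries, against 7949 and 9678 in the P0 libraries (adjusted p = 0.971), so that 1 P6 library lay above and 1 below both P0 libraries. Without P6 replicate 1 there were 14 falls and 1 rise on this list, and without P6 replicate 2, without P0 replicate 1 or without P0 replicate 2 there was no call on it. Depth moved with this difference between the P6 libraries, since P6 replicate 2 held 8394219 reads and P6 replicate 1 held 13678656. The P0 libraries held 12818981 and 8495567 reads, and there the share was the higher in replicate 2, which had fewer reads. The part of depth was not tested. Ribosomal protein genes have near-identical copies, and how reads were shared among them is not given in the sources used here.

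Of the ovarian cell markers, 9 were tested, 1 rose (11.1%) and 2 fell (22.2%), with a median log2 change of 0.09. Star, which carries cholesterol into mitochondria for steroid synthesis, had 1817 and 1475 in the P6 libraries, against 220 and 206 in the P0 libraries (log2 change 2.94 ± 0.18, adjusted p = 7.27e-05, called in all 10 fits). Wt1, a factor of ovarian surface and granulosa cells, had 28.2 and 25.8 in the P6 libraries, against 74.9 and 77.6 in the P0 libraries (log2 change -1.47 ± 0.26, adjusted p = 0.00747, called in 8 of the 10 fits), and Lhx9 fell as well (7 of the 10 fits). Of the endothelial markers none of 6 tested was called, and their summed signal of 1635 and 8620 in the P6 libraries, against 3132 and 2090 in the P0 libraries, was carried in P6 replicate 2 by Stab2. Of 4 tested neural and muscle markers, the cardiac actin gene Actc1 fell to 24.3 and 22.5 in the P6 libraries, against 51.4 and 60.4 in the P0 libraries (adjusted p = 0.0483, called in 2 of the 10 fits), and their summed signal was 97.0 and 140 in the P6 libraries, against 139 and 131 in the P0 libraries. No feature matched the list of nuclear RNAs linked to RNA quality.

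Several of the largest falls moved in part with the Dym share of the libraries. Lck, a kinase of T cells, had 20.3 and 34.8 in the P6 libraries, against 700 and 1855 in the P0 libraries (log2 change -5.37 ± 0.95, adjusted p = 0.00747, and 0.0643 without P0 replicate 2). Tex14, a gene of germ cell bridges, had 11845 and 4736 in the P6 libraries, against 119846 and 211636 in the P0 libraries (log2 change -4.41 ± 0.83, adjusted p = 0.00929, called in 7 of the 10 fits). Was, the actin regulator of blood cells, had 501 and 283 in the P6 libraries, against 2573 and 9631 in the P0 libraries (log2 change -3.72 ± 0.70, adjusted p = 0.00961, called in 8 of the 10 fits). In all 3 the P0 duplicates were themselves apart, with replicate 2 the higher, as its Dym share was. Il17b, a cytokine gene, had 322 and 110 in the P6 libraries, against 2389 and 4667 in the P0 libraries (log2 change -4.14 ± 1.21, adjusted p = 0.0425, called in 2 of the 10 fits, adjusted p = 0.201 without P0 replicate 2). These 4 genes were also low in P10 replicate 1, another library with a low Dym share, and high in its duplicate. Tex14 had 17923 and 116089, and Il17b 166 and 4373, in the P10 libraries. Not every level followed that share. Lck was the higher in P6 replicate 2, where the Dym share was the lower of the pair. Il17b had 6994 and 7495 in the P2 libraries, above both P0 libraries, with Dym shares of 8.53% and 11.1%. With the log2 Dym value as a covariate, added after seeing the data, the log2 change was -3.58 for Lck (adjusted p = 0.00317), -2.44 for Tex14 (adjusted p = 0.000547) and -2.18 for Was (adjusted p = 0.00314), smaller than without it and still called. That of Il17b was -0.98 and was not called (adjusted p = 0.0811). The remaining large rises and falls came from genes of varied function. Slitrk6, a neuronal transmembrane protein, had 104 and 149 in the P6 libraries, against 5.23 and 2.87 in the P0 libraries (log2 change 4.68 ± 0.57, adjusted p = 0.00184). Sox8, a transcription factor of gonad and neural crest, had 161 and 106 in the P6 libraries, against 6.10 and 2.87 in the P0 libraries (log2 change 4.65 ± 0.46, adjusted p = 0.000791). Gpr133, an adhesion receptor, had 26.6 and 46.1 in the P6 libraries, against 426 and 348 in the P0 libraries (log2 change -3.42 ± 0.30, adjusted p = 0.00046), and these last 3 were called in all 10 fits that left out 1 library.

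The 2 P6 libraries were then set against each other, as a description with no test, since each is 1 library. Of the 1876 features more than 2-fold apart, 954 were higher in replicate 2 and 922 in replicate 1, and 140 features were more than 4-fold apart. The widest gaps were in a few abundant transcripts that were high in P6 replicate 2 and near the P0 level in P6 replicate 1. Stab2, a scavenger receptor of sinusoidal endothelium, had 137 and 6829 in the P6 libraries, against 294 and 177 in the P0 libraries. Acoxl, a relative of the acyl-CoA oxidases, had 68.1 and 4593 in the P6 libraries, against 126 and 71.9 in the P0 libraries. Dtnb, a dystrobrevin, had 488 and 15849 in the P6 libraries, against 510 and 447 in the P0 libraries. For these 3 genes P6 replicate 1 looked like passage 0 and P6 replicate 2 did not. The same genes were high at the other passages after 0: Stab2 had 18284 and 15666 at P2, 16165 and 28647 at P4, and 6604 and 8065 at P10, and Acoxl had 12901 and 9513 at P2, 10269 and 17782 at P4, and 4438 and 5199 at P10. Dtnb had 16602 and 10807 at P2, 12879 and 26688 at P4, and 18122 and 5415 at P10. P6 replicate 1 was therefore the only library after passage 0 in which Stab2, Acoxl and Dtnb were near their P0 levels. Phactr1, a regulator of actin and phosphatase, followed them in part, with 39.1 and 519 in the P6 libraries, against 233 and 200 in the P0 libraries, 6978 and 4329 at P2, 4710 and 6967 at P4, and 664 and 2019 at P10. None of the 4 was called for P6 against P0.

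Among genes averaging 50 or more, the rest of the 8 widest gaps with P6 replicate 2 higher were those of Auts2, Rhoj, Slc12a8 and Cat. Auts2 had 74.3 and 428 in the P6 libraries, against 948 and 81.9 in the P0 libraries, and its duplicates were also far apart at P4, at 799 and 92.1. Rhoj, a small GTPase, had 86.1 and 389 in the P6 libraries, against 77.5 and 66.1 in the P0 libraries, and Slc12a8, a transporter, had 44.6 and 193 in the P6 libraries, against 40.9 and 31.6 in the P0 libraries. The 8 widest gaps with replicate 1 higher were all smaller than those of Acoxl, Stab2, Dtnb and Phactr1. Dym had 462625 and 108596 in the P6 libraries. Spocd1 had 47.7 and 10.1 in the P6 libraries, against 96.7 and 125 in the P0 libraries, and Comtd1 had 65.7 and 7.86 in the P6 libraries, against 101 and 89.1 in the P0 libraries. Atp6v1f, a subunit of the proton pump, had 860 and 203 in the P6 libraries, against 635 and 789 in the P0 libraries. Ccdc36, Cwh43, Pard6a and Znhit2 were the others with the widest gaps in this direction, and for each of them P6 replicate 2 lay below both P0 libraries.

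**Figure D5:**
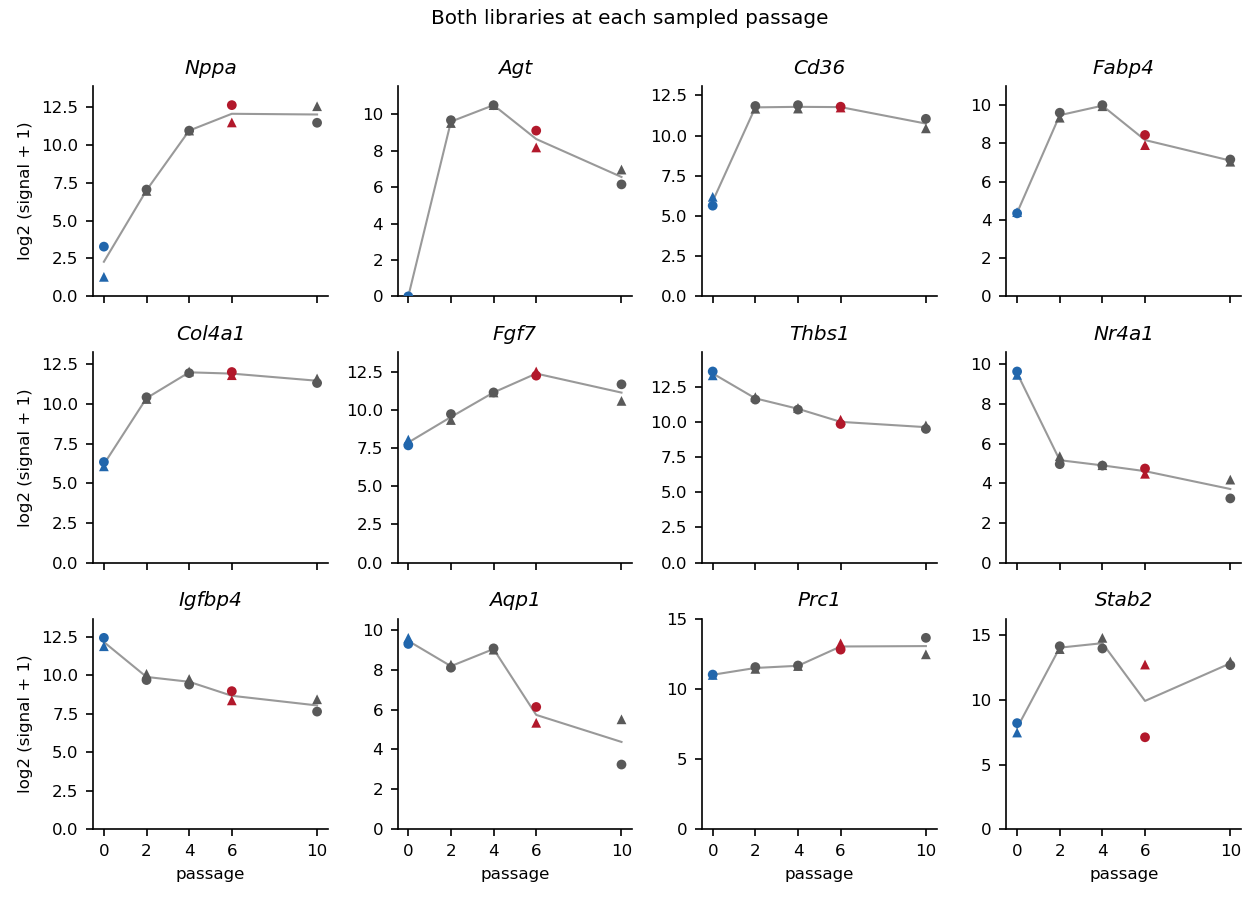
Log2 of the normalised signal plus 1 of 12 genes at passages 0, 2, 4, 6 and 10; circles are replicate 1 and triangles replicate 2, red marks P6, blue marks P0, grey marks the other passages, and the line joins the mean of each passage. Cd36 and Col4a1 are level between P4 and P6, Fabp4 and Aqp1 are lower at P6 than at P4, and the P6 duplicates of Stab2 lie at 137 and 6829.

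Passage 6 was also set against its neighbours, P4 before it and P10 after it, in the same fit. For P6 against P4 no feature was called, 0.0% of 13521, by limma, with 3450 features at an unadjusted p under 0.05 (1583 higher and 1867 lower at P6) and a smallest adjusted p of 0.138. On recovered reads edgeR's quasi-likelihood test called 0 and DESeq2 called 512. For P6 against P10 no feature was called either, 0.0% of 13521, with 1273 at an unadjusted p under 0.05 (488 higher and 785 lower at P6) and a smallest adjusted p of 0.318, against 0 by edgeR and 80 by DESeq2. Both counts of 0 changed when single libraries were left out. P10 is not part of the contrast with P4, so leaving out either P10 library changes only the estimated spread there. Without P10 replicate 1 there were 3673 calls for P6 against P4 and 2936 for P6 against P10. Without P10 replicate 2 there were 3676 for P6 against P4 and none for P6 against P10, and without P6 replicate 2 there were 9 and 6.

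The genes with the smallest p at this step are given as values. Pfn1, profilin, which feeds actin monomers to filaments, had 1757 and 2039 in the P6 libraries, against 666 and 671 in the P4 libraries (log2 change 1.5 ± 0.21, adjusted p = 0.161). Galntl6, a glycosyltransferase gene, had 2057 and 1721 in the P6 libraries, against 935 and 973 in the P4 libraries (log2 change 0.98 ± 0.19, adjusted p = 0.179), and Kif20a had 1961 and 2063 in the P6 libraries, against 927 and 895 in the P4 libraries (log2 change 1.14 ± 0.21, adjusted p = 0.179). Lower at P6 were 3 genes. Angpt4, an angiopoietin, had 743 and 565 in the P6 libraries, against 2146 and 2169 in the P4 libraries (log2 change -1.73 ± 0.20, adjusted p = 0.138). Fabp4 had 344 and 238 in the P6 libraries, against 1016 and 976 in the P4 libraries (log2 change -1.80 ± 0.22, adjusted p = 0.138). Il1r2, a decoy receptor of interleukin 1, had 95.5 and 88.8 in the P6 libraries, against 289 and 289 in the P4 libraries (log2 change -1.64 ± 0.21, adjusted p = 0.138).

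Against P10, the smallest p-values belonged to Efemp1, the intermediate filament gene Synm and Egr2 among genes higher at P6, and to Cdca7, the chemokine gene Cxcl1 and the replication licensing gene Cdc6 among those lower at P6. Egr2 had 99.4 and 87.6 in the P6 libraries, against 18.6 and 20.3 in the P10 libraries (log2 change 2.21 ± 0.32, adjusted p = 0.318). Synm had 804 and 861 in the P6 libraries, against 392 and 381 in the P10 libraries (log2 change 1.1 ± 0.15, adjusted p = 0.318). Cdc6 had 233 and 170 in the P6 libraries, against 381 and 440 in the P10 libraries (log2 change -1.04 ± 0.21, adjusted p = 0.457). No adjusted value of these genes came near the threshold.

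Set in the order of passages, the lead genes of passage 6 had reached their levels at different times. Cd36 stood at 48.8 and 71.9 in the P0 libraries, 3659 and 3245 in those of P2, 3796 and 3273 in those of P4, 3548 and 3423 in those of P6, and 2103 and 1394 in those of P10. Nppa stood at 8.71 and 1.44 in the P0 libraries, 131 and 123 in those of P2, 1950 and 1959 in those of P4, 6264 and 2837 in those of P6, and 2795 and 5958 in those of P10. Agt had no read in the P0 libraries, then 818 and 734 in those of P2, 1448 and 1452 in those of P4, 549 and 289 in those of P6, and 70.0 and 124 in those of P10. So Cd36 stood at P6 where it had stood since P2, Nppa stood above its P4 level in both libraries, and Agt stood below its P4 level in both. Aqp1 stood at 625 and 773 in the P0 libraries, 273 and 304 in those of P2, 536 and 512 in those of P4, 68.9 and 39.3 in those of P6, and 8.44 and 44.5 in those of P10. Its P6 libraries were below those of every earlier passage, with a log2 change of -3.31 ± 0.61 against P4 that was not called (adjusted p = 0.179). Nr4a1 stood at 792 and 703 in the P0 libraries, 30.2 and 40.2 in those of P2, 28.7 and 29.1 in those of P4, 25.8 and 21.3 in those of P6, and 8.44 and 17.2 in those of P10. Fgf7 stood at 203 and 264 in the P0 libraries, 843 and 643 in those of P2, 2247 and 2242 in those of P4, 4810 and 5807 in those of P6, and 3244 and 1531 in those of P10, so that the P6 libraries held its highest levels.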

How the data were processed

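The authors deposited 1 table of signal values, read counts per feature scaled by DESeq; the submitters' processing notes name that tool without a version. Aligner, counting rule and genome build: not given in the sources used here. In every column 100% of values were integer steps of its lowest positive value (tolerance 0.01 reads), so reads were recovered by dividing by that value. For P4 replicate 1 that step is near 1, so scaled reads and rounded values are harder to tell apart there. All 10 columns were mapped to samples by title, and 0 were left over. Of 20050 features named by gene number, 16386 were given symbols from the RefSeq gene table of CriGri-PICRH-1.0, used for names only. Promoter motifs were not analysed here. No gene is named from the 30 features that carry coordinates or the 7 whose symbols had become dates.

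Log2 of the deposited signal plus 1 was tested with limma 3.58.1 in R 4.3.3, with a trended prior, over the 13521 features averaging 10 or more. The model had 1 mean for each passage over the 10 libraries, with 5 residual degrees of freedom. Contrasts were P6 against P0, P4 and P10, two-sided, with Benjamini-Hochberg adjustment at 0.05. Errors are standard errors of the log2 change. On recovered reads edgeR 4.0.16 (quasi-likelihood) called 2762 features and DESeq2 1.42.0 called 3543 for P6 against P0. The steps were tested on simulated data with the same spread in every library. That setting does not cover the unequal gaps between duplicates seen here. Genes without a read at P0 were compared with a floor of 3 reads in each library. Those with 1 to 3 reads are given as a depth-scaled ratio of summed reads with its exact 95% binomial interval. Both cover counting error only.

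The 40 gene lists (1236 entries, 1080 matched) and the comparison were chosen with earlier results of these data known. Named genes followed a rule: for genes averaging 50 or more that carry a true symbol, the 12 largest rises and 12 largest falls free of overlap, the 4 smallest p in each direction, up to 4 called members per list, for the contrasts with P4 and P10 the 3 smallest p in each direction, the 8 widest gaps between the P6 duplicates in each direction, and Igfbp4, Aqp1, Nppa and Nppb. Of 170 such genes 152 were called for P6 against P0, 62 of them in all 10 fits that left out 1 library. Other members of the lists, called or not, are named outside that rule, as are the marker genes. Some members counted in the lists are not reported here by name. Replicate numbers did not pair the P0 and P6 libraries (correlation of same-numbered deviations -0.053), and over all pairs of passages it ranged from -0.67 (P6 with P10) to 0.225 (P2 with P10), so no block was used. Alternatives tried were other pseudocounts, filters, scalings, weights, tools, fits of 2 passages, a replicate block and leaving out each library. After seeing the data, dropping both P6 replicate 2 and P10 replicate 1, using log2 Dym as a covariate and a crossed block for P6 against P10 were added.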

Additional observations from a re-analysis of the deposited data

How the results depend on the processing

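For P6 against P0 the count of 2841 calls stayed within 1.5 times under pseudocounts of 0.5 and 5, a mean of at least 50, no filter, median centring, quantile normalization, array weights, a fit of the 2 passages only, the Dym covariate, edgeR and DESeq2, where it lay between 2566 (no filter) and 3944 (Dym covariate). Fits that left out 1 library gave 412 (P0 replicate 1) to 5441 (P10 replicate 2) calls, and dropping both P6 replicate 2 and P10 replicate 1 gave 6595. With the replicate block there were 2024 calls, 1067 higher and 957 lower; replicate numbers did not pair the libraries (correlation -0.053 between P0 and P6), and the paired fit is given for completeness. For P6 against P4, with 0 calls by limma, quantile normalization gave 1, the 2 passages alone 4, array weights 1689 and DESeq2 512, and leaving out 1 library gave 0 to 3676. For P6 against P10, with 0 calls, DESeq2 gave 80 and leaving out 1 library gave 0 to 2936; the deviations of same-numbered P6 and P10 libraries correlated at -0.67, and the crossed block gave 0 calls, as the replicate block did. Array weights were 0.364 for the P6 libraries, 0.204 for P10 and 3.13 for P4. The causes were not tested. Of the 170 named genes, Cwh43 and Atp6v1f changed sign with the Dym covariate, to log2 changes of 1.0 and 0.87, and were not called without it. No other setting changed the sign of a named gene that was called with or without that setting. Some uncalled genes did change sign when a P6 library was left out. The log2 change of Phactr1 went from -0.58 to 1.26 without P6 replicate 1, and that of Cwh43 from -0.8 to 0.28 without P6 replicate 2. Where a library was left out of P6 or P0, the lone duplicate is assumed to vary like the other passages. With 2 libraries a passage and P6 duplicates apart in 13.9% of features, small changes and the contrasts with P4 and P10 are those most limited here.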
